A study of Mus musculus with 4 samples.

Results

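The 9 genes described here encode basic helix-loop-helix (bHLH) transcription factors of the neural lineage: *Neurog1*, *Neurog2*, *Neurog3*, *Neurod1*, *Neurod2*, *Neurod4*, *Neurod6*, *Atoh1* and *Olig2*. They were taken from a list of names and not from measured values, out of 22367 protein-coding genes of the GENCODE vM1 annotation on mm9. The names were, however, chosen with earlier results of these data known. For each gene, every peak with an edge within 100 kb of an annotated transcription start site (TSS) was collected from the peak lists of 4 ChIP-seq libraries. The genes were then divided by whether a Ring1B peak lay at the TSS, which here means within 1000 bp of it.

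The libraries were prepared from E14 mES cells, a mouse embryonic stem cell line of 129/Ola background, used at passage 3 to 5 without feeder cells on gelatin. All cells were grown in 2i + LIF medium with the MEK inhibitor PD0325901 (1 μM), the GSK3 inhibitor CHIR99021 (3 μM) and LIF (1000 U/ml), and were fixed for 10 min in 1% formaldehyde. There was 1 library each for Ring1B, Dzip3, ubiquitylated histone H2A (ubH2A) and input DNA, all from untreated cells of this single line. With 1 library per target there is no replicate check, so no test is given, and the 95% intervals below cover counting error only. On how chromatin was cut the sources differ, as the labels name a Picoruptor and the paper micrococcal nuclease. The files hold no RNA measurement, so the labelled cell type could not be checked against marker genes.

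Proneural bHLH factors pair with E proteins, bind the E-box motif and start neuronal differentiation, while Id proteins and several Hes proteins oppose them. In embryonic stem cells such genes are classical targets of Polycomb repression. Ring1B is the catalytic subunit of Polycomb repressive complex PRC1, which places a single ubiquitin on histone H2A. Dzip3 is another RING-type H2A ubiquitin ligase. Polycomb complexes are known to occupy regions rich in the dinucleotide CG, known as CpG islands.

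The promoters of 4 members are printed first because they differ in whether Ring1B peaks cover them and in their CG content. Each run is the 200 bases just before the TSS, read from the mm9 genome on the strand of the gene, with CG in capitals. A Ring1B peak covered all 200 bases of the *Olig2* run (chr16:91225595-91225794, plus strand) and 188 bases of the *Neurog1* run (chr13:56353525-56353724, minus strand). No Ring1B peak touched the runs of *Neurod1* (chr2:79296909-79297108, minus strand) or *Neurod6* (chr6:55631258-55631457, minus strand).
Olig2 promoter: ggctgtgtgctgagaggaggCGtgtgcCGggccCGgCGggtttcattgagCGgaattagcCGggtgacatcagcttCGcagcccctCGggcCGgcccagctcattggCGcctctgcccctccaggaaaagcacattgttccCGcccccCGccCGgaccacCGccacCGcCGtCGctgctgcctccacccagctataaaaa
Neurog1 promoter: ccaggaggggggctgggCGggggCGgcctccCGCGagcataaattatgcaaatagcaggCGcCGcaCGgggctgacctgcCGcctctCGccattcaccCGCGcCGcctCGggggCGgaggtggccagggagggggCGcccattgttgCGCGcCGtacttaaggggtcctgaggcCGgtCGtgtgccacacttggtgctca
Neurod1 promoter: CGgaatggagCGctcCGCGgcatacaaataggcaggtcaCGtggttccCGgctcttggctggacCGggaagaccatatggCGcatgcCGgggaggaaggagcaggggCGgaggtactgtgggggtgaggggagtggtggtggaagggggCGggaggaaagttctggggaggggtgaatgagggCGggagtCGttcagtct
Neurod6 promoter: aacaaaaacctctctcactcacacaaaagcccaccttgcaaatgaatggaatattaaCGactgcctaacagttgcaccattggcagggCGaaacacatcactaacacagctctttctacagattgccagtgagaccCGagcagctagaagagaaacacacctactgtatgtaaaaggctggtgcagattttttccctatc
These runs held 17 CG in *Olig2*, 20 in *Neurog1*, 13 in *Neurod1* and 3 in *Neurod6*. Of the runs not printed, *Atoh1* held 17, *Neurod2* 10 and *Neurog2* 6, all with a Ring1B peak at the TSS, and *Neurog3* held 14 and *Neurod4* 4 without one. The median over the 200 bases upstream of all protein-coding genes was 7, and it was 12 in genes with a Ring1B peak at the TSS.

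A Ring1B peak lay at the TSS of 5 of the 9 genes, *Neurog1*, *Neurog2*, *Neurod2*, *Atoh1* and *Olig2*. Among all protein-coding genes 7.54% had one. The genes without one were *Neurog3*, *Neurod1*, *Neurod4* and *Neurod6*. *Neurod2* was the member just inside the limit, with a peak of 1888 Ring1B reads that began 454 bp downstream of the TSS. *Neurod6* was the nearest outside, with a peak of 96 Ring1B reads 3968 bp downstream of its TSS and past the 3′ end of the gene. With a limit of 4000 bp the count was 6 of 9, against 10.0% of all genes. With the requirement that the peak cover the TSS itself it was 4 of 9. The share of all genes under that last rule is not given, so this count has no background beside it.

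**Figure D1:**
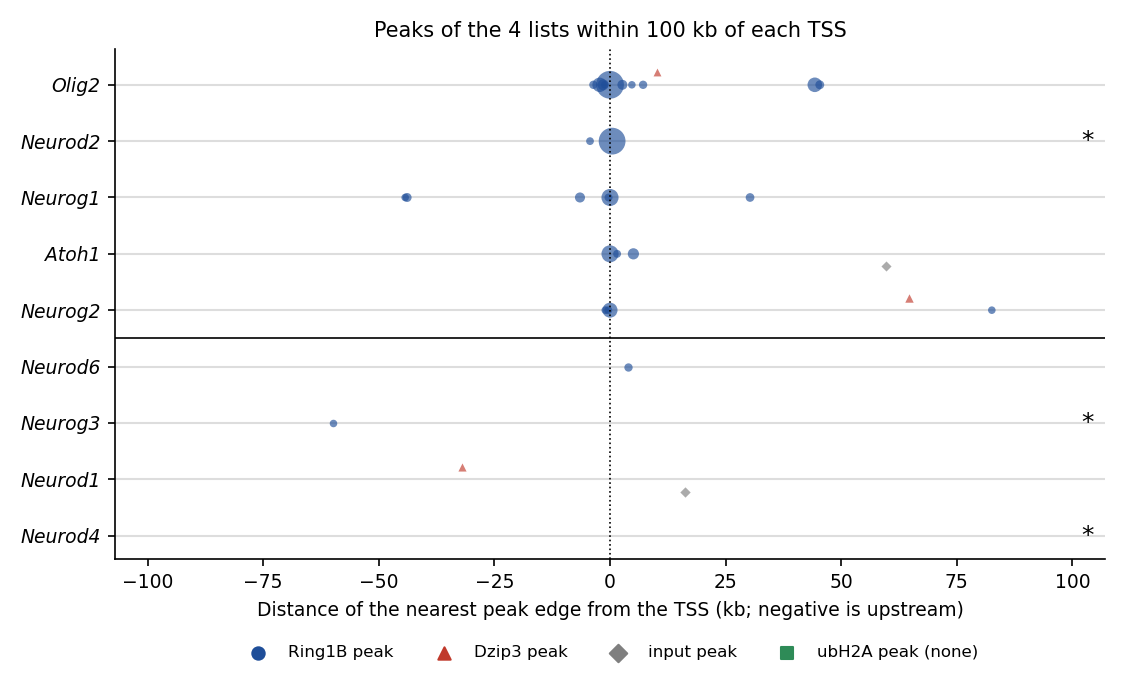
Peaks of the Ring1B, Dzip3, ubH2A and input lists within 100 kb of the TSS of each gene (x axis, distance of the nearest peak edge in kb, negative values upstream), with symbol area growing with the reads of the peak's own library. Genes above the line have a Ring1B peak at the TSS and genes below it have none. An asterisk marks genes on chromosomes where the ubH2A and input lists are incomplete. In the upper 5 genes the largest Ring1B peak lies within 1000 bp of the TSS, and the 3 Dzip3 peaks lie farther away.

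Within 100 kb the 9 genes had 27 Ring1B peaks, 3 Dzip3 peaks and 2 input peaks. Of the Ring1B peaks, 20 lay within 10 kb of the TSS, 16 were intergenic, and for 21 of them the member was the gene with the nearest TSS. The genes with a TSS peak had 25 of the 27 Ring1B peaks, with a median of 4 and a range from 2 to 10. The genes without had the remaining 2, with a median of 0.5 and a range from 0 to 1. That split contains the TSS peaks that define it. Counting only peaks beyond 1000 bp, the genes with a TSS peak had 18 (median 2, range 1 to 9). The genes without had 2 (median 0.5, range 0 to 1). These ranges meet at 1 peak, where *Neurod2* stood beside *Neurog3* and *Neurod6*. This count is not free of the split either, since several of the 18 lay next to the TSS peak. With peaks less than 1000 bp apart merged, the total for *Olig2* went from 10 to 4. That of *Neurog1* went from 6 to 4, that of *Neurog2* from 4 to 2 and that of *Atoh1* from 3 to 2. Others of the 18 lay in *Olig1* or over TSSs of *Cxcl14*. Over all genes the median beyond 1000 bp was 1 in those with a Ring1B peak at the TSS and 0 in those without. At least 1 Ring1B peak within 100 kb was found for 7 of the 9 members and for 50.3% of all protein-coding genes.

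*Olig2*, which directs motor neuron and oligodendrocyte fate, had the most Ring1B. Its gene lies on chromosome 16 (mm9 chr16:91225795-91228922, plus strand). The main peak was 3208 bp long and began upstream of the TSS, and the Ring1B peaks together covered 95.4% of the gene. There were 8 Ring1B peaks within 10 kb, which covered 6576 bp of a span of 11454 bp and held 3255 Ring1B reads. Another pair of peaks, 44.3 and 45.4 kb downstream with 491 and 121 Ring1B reads, lay in *Olig1*, the neighbouring bHLH gene of the oligodendrocyte lineage. The total of 10 Ring1B peaks within 100 kb was reached or passed by 1.68% of all protein-coding genes and by 10.1% of those with a Ring1B peak at the TSS.

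*Neurod2*, which acts in maturing cortical neurons (chr11:98186729-98190962, minus strand), had a single block of Ring1B inside the gene. The peak was 2394 bp long, was centred on the coding exon and covered 56.6% of the gene, and it left the 200 bases upstream of the TSS free. The other Ring1B peak of *Neurod2* lay 4.33 kb upstream and had 71 reads. The centre of the main peak shows how dense CG is within the coding sequence, with 24 CG in 200 bases (chr11:98189211-98189410, minus strand, CG in capitals).
Neurod2 Ring1B peak centre: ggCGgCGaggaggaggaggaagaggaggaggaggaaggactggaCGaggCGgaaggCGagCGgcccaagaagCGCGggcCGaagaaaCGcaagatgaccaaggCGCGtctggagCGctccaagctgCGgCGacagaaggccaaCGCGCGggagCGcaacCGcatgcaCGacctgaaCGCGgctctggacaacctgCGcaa
All 200 bases are coding. The median count over 300 bases at the centres of Ring1B peaks at a TSS was 22, and the same 300-base window of *Neurod2* had 27.

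*Neurog1*, which specifies cranial sensory neurons (chr13:56351866-56353524, minus strand), had 6 Ring1B peaks. Next to the main peak of 1181 bp was a smaller one 316 bp upstream with 81 reads. Another was 6.50 kb upstream with 185 reads. A peak 30.3 kb downstream had 114 reads, and a pair of peaks lay 43.9 and 44.3 kb upstream, over annotated TSSs of the chemokine gene *Cxcl14*, with 128 and 61 reads. Ring1B peaks covered 59.9% of the *Neurog1* gene.

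*Atoh1*, which is needed for cerebellar granule cells and inner ear hair cells (chr6:64679140-64681227, plus strand), had 3 Ring1B peaks. The main peak began 7 bp before the TSS and was 1340 bp long. A second one at 1.53 kb had 78 reads and a further one at 5.06 kb, past the 3′ end, had 252 reads. They covered 76.4% of the gene.

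*Neurog2*, which drives the formation of glutamatergic cortical neurons (chr3:127336054-127338549, plus strand), had the weakest TSS peak of the 5, 1235 bp long, with 47.2% of the gene covered. Smaller peaks lay 364 bp and 1011 bp upstream with 74 and 69 reads. A peak 82.6 kb downstream with 63 reads lay in an intron of the kinase gene *Alpk1*.

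**Figure D2:**
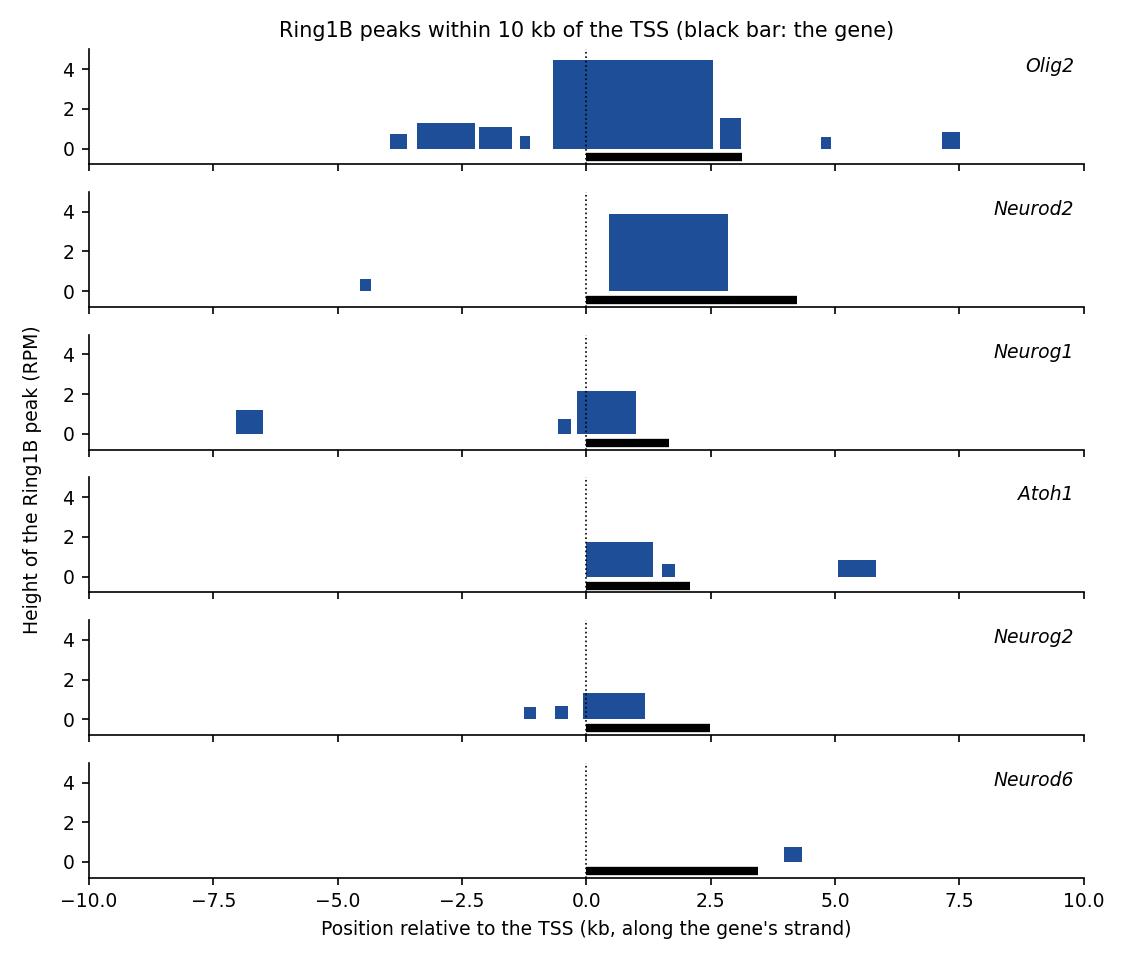
Ring1B peaks within 10 kb of the TSS of the 6 genes that have any (x axis, kb along the strand of the gene; y axis, height of the peak in RPM, the largest number of overlapping reads scaled to library size). Each block spans the length of 1 peak and the black bar is the gene. *Olig2* has the tallest and widest group, and the *Neurod6* peak lies past the end of the gene.

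The remaining genes had little Ring1B around them. *Neurog3*, which specifies the endocrine cells of the pancreas (chr10:61595838-61597511, plus strand), had 1 peak 60.0 kb upstream with 61 Ring1B reads. *Neurod6*, a gene of cortical projection neurons (chr6:55627812-55631257, minus strand), had only the peak past its 3′ end. *Neurod1*, which acts in neurons and in pancreatic beta cells (chr2:79292678-79296908, minus strand), had none within 100 kb, and its nearest Ring1B peak was 480 kb away. *Neurod4*, which takes part in the formation of retinal neurons (chr10:129705209-129717296, minus strand), also had none, the nearest being 163 kb away.

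The lists give the reads of all 4 libraries in each peak, which allows the libraries to be set against each other at the same place. In the strongest TSS peak of *Olig2* (chr16:91225132-91228340) there were 2040 Ring1B, 93 Dzip3, 171 ubH2A and 20 input reads. In that of *Neurod2* (chr11:98188114-98190508) there were 1888 Ring1B, 144 Dzip3, 110 ubH2A and 6 input reads. These peaks ranked 60 and 66 by Ring1B reads among the 10119 Ring1B peaks. *Neurog1* (chr13:56352531-56353712) had 713 Ring1B, 68 Dzip3, 42 ubH2A and 6 input reads. *Atoh1* (chr6:64679133-64680473) had 711 Ring1B, 91 Dzip3, 83 ubH2A and 16 input reads, and *Neurog2* (chr3:127335996-127337231) had 528, 52, 52 and 9 in the same order. The last 3 ranked 355, 356 and 527.

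Scaled to library size, Ring1B gave 39.4 RPM in *Olig2*, 36.5 in *Neurod2*, 13.8 in *Neurog1*, 13.7 in *Atoh1* and 10.2 in *Neurog2*. Counting error separated *Olig2* narrowly from *Neurod2*, with a ratio of 1.08 (95% exact interval 1.01 to 1.15), and *Neurod2* clearly from *Neurog1*, with 2.65 (2.43 to 2.89). *Neurog1* and *Atoh1* could not be separated, with a ratio of 1.00 (0.90 to 1.11). *Atoh1* was above *Neurog2* by 1.35 times (1.20 to 1.51). The order depends on peak length. Per kb of peak, *Neurod2* came first with 789 Ring1B reads, followed by *Olig2* with 636, *Neurog1* with 604, *Atoh1* with 531 and *Neurog2* with 428, and *Olig2* was then not separated from *Neurog1* (1.05, 0.97 to 1.15).

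**Figure D3:**
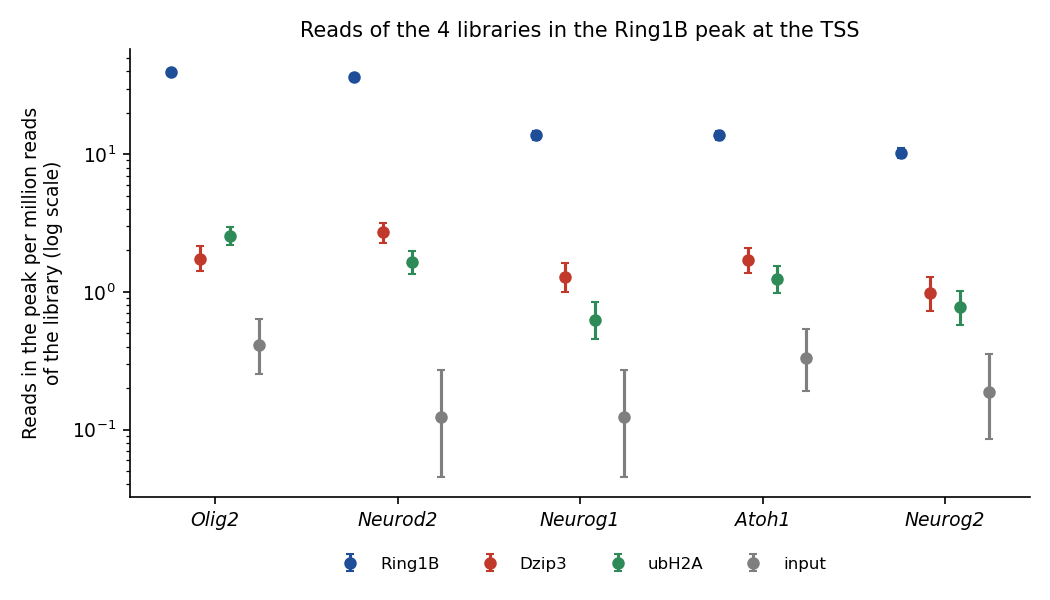
Reads of the Ring1B, Dzip3, ubH2A and input libraries in the strongest Ring1B peak at the TSS of the 5 genes (y axis, RPM, reads scaled to library size, log scale). Points are the values of the single libraries and bars are 95% exact Poisson intervals. Ring1B lies between 10.2 and 39.4 RPM, Dzip3 and ubH2A lie between it and input DNA in each gene, and Dzip3 is below ubH2A in *Olig2* alone.

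These 5 regions were taken from the Ring1B list, so Ring1B above input DNA was fixed by their selection and its ratio only describes the size. It was 41.5 (95% exact interval 25.4 to 72.9) in *Atoh1* at the lowest and 294 (135 to 801) in *Neurod2* at the highest, and 96.3 (74.2 to 127) over the 5 peaks together. Scaled to the reads in all Ring1B peaks instead of library size, the ratio over the 5 peaks was 199.8 for Ring1B. It moved from 7.13 to 17.0 for Dzip3 and from 5.79 to 13.8 for ubH2A. Such a rise means that input held a larger share of its reads in all Ring1B peaks than each ChIP library did. In the 8481 Ring1B peaks without an input peak, Ring1B over input was 19.6. The rise is therefore not a measure of stronger Ring1B. In the 5 TSS peaks Dzip3 reads exceeded input reads as well, although no Dzip3 peak was listed there. The ratio of Dzip3 to input was 21.8 (9.76 to 60.3) in *Neurod2*, 10.3 (4.48 to 29.0) in *Neurog1*, 5.24 (2.56 to 12.1) in *Neurog2*, 5.16 (3.01 to 9.40) in *Atoh1* and 4.22 (2.58 to 7.22) in *Olig2*. For ubH2A it lay between 3.74 (2.17 to 6.84) in *Atoh1* and 13.2 (5.88 to 36.8) in *Neurod2*. Input DNA itself was sparse in these peaks, with 2.51 to 11.9 reads per kb against a genome mean of 18.9, and the part of this in the ratios was not tested. Set against the genome mean of its own library instead, Dzip3 per kb was 1.39 times as high in *Olig2* and 3.26 times in *Atoh1*, with the others between. The same measure gave 1.36 to 2.36 for ubH2A and 21.1 to 39.0 for Ring1B.

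The balance of Dzip3 and ubH2A differed among the genes. Dzip3 was below ubH2A in *Olig2*, with a scaled ratio of 0.68 (0.53 to 0.89). It was above ubH2A in *Neurog1* with 2.04 (1.37 to 3.07), in *Neurod2* with 1.65 (1.28 to 2.13) and in *Atoh1* with 1.38 (1.01 to 1.88). In *Neurog2* the ratio was 1.26 with an interval that includes 1 (0.84 to 1.88). For comparison with peaks of similar size, 244 Ring1B peaks at a TSS were 1000 bp or longer and overlapped no input peak. Their median reads per kb, not scaled to library size, were 481 for Ring1B, 46.4 for Dzip3, 48.8 for ubH2A and 6.99 for input DNA. Pooled and scaled to library size, these 244 peaks had 5.97 for Dzip3 over input and 5.09 for ubH2A over input. Scaled Dzip3 was thus above ubH2A there too, and a ratio above 1 is not particular to the members. The 5 members had 428 to 789 for Ring1B, 29.0 to 67.9 for Dzip3, 35.6 to 61.9 for ubH2A and 2.51 to 11.9 for input DNA, so each of these ranges held the median of the long TSS peaks. A Dzip3 peak overlapped 2.46% of those 244 peaks and a ubH2A peak 2.05%.

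The genes whose TSS peak was most like the median of the 5 members were *Barhl2*, *Zfp316*, *Gm996*, *Eya4* and *Adra2a*, out of 1681 compared. Likeness was the Euclidean distance over the 4 libraries in log2 of RPM per kb plus 0.1, and it ran from 0.19 in *Barhl2* to 0.33 in *Adra2a*. The *Barhl2* peak had 613 Ring1B, 49 Dzip3, 46 ubH2A and 6 input reads. *Barhl2* encodes a homeodomain factor of the nervous system.

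The 20 Ring1B peaks beyond 1000 bp had ratios to input of 27.5 for Ring1B, 3.69 for Dzip3 and 3.36 for ubH2A in sum. Some of them were stronger than the smaller peaks at the TSS of a member. The *Olig2* peak 2.2 kb upstream had 481 Ring1B reads and the *Atoh1* peak at 5.06 kb had 252. The second TSS peaks of *Neurog1* and *Neurog2* had 81 and 74. The peak with 491 reads counted for *Olig2* lay 75 bp from the TSS of *Olig1* and is thus itself a peak at a TSS. Over all 27 Ring1B peaks the reads ranged from 61 to 2040 for Ring1B (median 114), 0 to 144 for Dzip3 (median 21), 1 to 171 for ubH2A (median 21) and 0 to 20 for input DNA (median 4). None of the 27 overlapped a peak of the Dzip3, ubH2A or input lists. Of all 8481 Ring1B peaks without an input peak, the share with a Dzip3 overlap was 22.1% and that with a ubH2A overlap 21.4%, and among those at a TSS the shares were 3.19% and 3.58%.

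Dzip3 peaks lay around these genes about as often as around protein-coding genes in general. No member had one at the TSS, where 1.30% of all protein-coding genes had one, and 3 of the 9 had one within 100 kb, against 36.3% of all genes. Of the genes with a Ring1B peak at the TSS, 2 of 5 had a Dzip3 peak within 100 kb (*Neurog2* and *Olig2*), and of those without, 1 of 4 (*Neurod1*). Over the genome these shares were 46.1% and 35.5%. The members' shares were near these backgrounds. The nearest Dzip3 peak of the other genes was 165 kb away for *Neurog3* and 201 kb for *Neurog1*, 213 kb for *Neurod2*, 494 kb for *Neurod6*, 504 kb for *Atoh1* and 544 kb for *Neurod4*. By ChIP followed by quantitative PCR, the paper reports Dzip3 around the promoters of *Neurog1* and *Neurod1*. A peak missing from the list thus does not show that Dzip3 was absent there.

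The 3 Dzip3 peaks are printed with their central 200 bases, on the strand of the member and with each E-box in capitals, because they differ from the Ring1B peaks in their sequence. The E-box motif was searched as CANNTG, which reads the same on both strands, with overlapping matches counted. The *Neurog2* peak (window chr3:127400874-127401073, plus strand) lay 64.8 kb downstream in an intron of *Alpk1*. The *Neurod1* peak (window chr2:79328857-79329056, minus strand) lay 31.9 kb upstream in an intergenic stretch, at nearly the same distance from *Cerkl*, and the *Olig2* peak (window chr16:91236070-91236269, plus strand) lay 10.3 kb downstream in an intergenic stretch.
Neurog2 Dzip3 peak centre: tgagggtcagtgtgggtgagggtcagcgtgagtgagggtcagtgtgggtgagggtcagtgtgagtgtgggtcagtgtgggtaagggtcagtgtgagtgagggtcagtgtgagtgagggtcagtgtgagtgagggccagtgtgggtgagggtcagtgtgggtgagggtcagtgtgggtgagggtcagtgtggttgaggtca
Neurod1 Dzip3 peak centre: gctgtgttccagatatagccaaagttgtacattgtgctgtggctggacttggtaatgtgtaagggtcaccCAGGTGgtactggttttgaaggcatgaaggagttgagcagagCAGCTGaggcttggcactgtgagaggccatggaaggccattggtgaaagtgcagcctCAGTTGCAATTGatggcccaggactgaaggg
Olig2 Dzip3 peak centre: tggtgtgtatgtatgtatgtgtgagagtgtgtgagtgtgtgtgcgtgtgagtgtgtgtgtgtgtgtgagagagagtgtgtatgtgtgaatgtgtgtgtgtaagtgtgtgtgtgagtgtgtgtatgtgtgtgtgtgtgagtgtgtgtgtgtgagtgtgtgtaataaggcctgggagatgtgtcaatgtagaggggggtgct
The *Neurod1* window held 4 E-boxes and no CG, and the windows of *Neurog2* and *Olig2* held no E-box and 1 CG each. An E-box was found in 67.3% of such 200-base windows of all Dzip3 peaks, and their median number of CG was 2. A match is a description of the letters and not evidence of binding by a bHLH factor.

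The windows of *Neurog2* and *Olig2* are built of short repeated units. They held 51 and 77 distinct words of 6 bases among 195 positions, while the *Neurod1* window held 187 and the median over all Dzip3 peaks was 181. As few distinct words as in *Neurog2* were found in 10.9% of Dzip3 peaks, and as few as in *Olig2* in 19.4%. Repeated runs were counted as runs of 32 bases that match exactly in mm9 on either strand more than once. Matches within the same peak count too, so a repeated run need not occur at another place. All runs of the *Neurod1* peak were repeated, with up to 1730 copies, as were 55.4% in the *Neurog2* peak and 26.3% in the *Olig2* peak. These shares are over the whole peak. Over the central 200 bases of all Dzip3 peaks the median was 76.3%, and most runs were repeated in 61.5% of them. Of the 27 Ring1B peaks of the members, 23 held no repeated run and 26 had fewer than 2% of their runs repeated. Over the central 200 bases of all Ring1B peaks the median was 18.3%, with any repeated run in 57.5% of them and most runs repeated in 41.8%. The exception was the only peak of *Neurog3*, with 79.9% repeated and 28 distinct words. How reads from repeated sequence were assigned is described for this assay only as reads mapped uniquely, and its part in the peaks was not tested. Leaving out peaks in which most runs were repeated kept 26 Ring1B peaks and 1 Dzip3 peak, that of *Olig2*.

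The *Neurog2* Dzip3 peak had 101 Dzip3, 20 Ring1B, 21 ubH2A and 8 input reads. The *Olig2* Dzip3 peak had 75 Dzip3, 12 Ring1B, 32 ubH2A and 2 input reads. The *Neurod1* peak had 87 Dzip3, 37 Ring1B, 28 ubH2A and 2 input reads. These regions were taken from the Dzip3 list, so Dzip3 reads are high in them by selection and the ratios only describe by how much. Dzip3 exceeded Ring1B, scaled to library size, by 4.91 times (95% exact interval 3.02 to 8.37) in *Neurog2*, by 6.07 times (3.28 to 12.3) in *Olig2* and by 2.28 times (1.54 to 3.45) in *Neurod1*. Dzip3 over input was 11.4 (5.59 to 27.2) in *Neurog2*, 34.0 (9.09 to 286) in *Olig2* and 39.4 (10.6 to 331) in *Neurod1*, with very wide intervals for *Olig2* and *Neurod1* because input had 2 reads in each. None of the 3 overlapped a Ring1B, ubH2A or input peak. Of all 6482 Dzip3 peaks, 4755 overlapped no input peak, and 33.9% of these 4755 overlapped a ubH2A peak. The share of Dzip3 peaks that overlapped a Ring1B peak is not given, so that part has no background beside it.

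**Figure D4:**
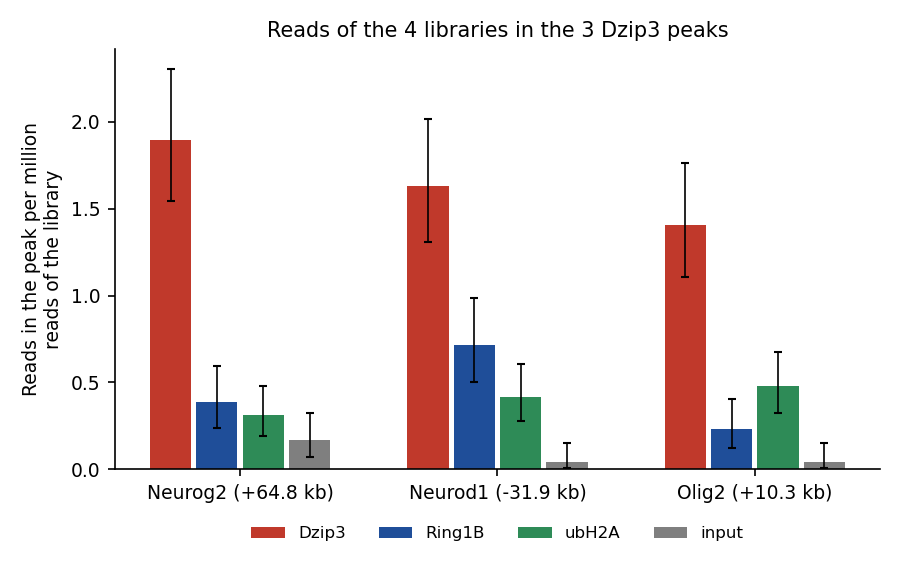
Reads of the 4 libraries in the Dzip3 peaks within 100 kb of *Neurog2*, *Neurod1* and *Olig2* (y axis, RPM, reads scaled to library size; distance from the TSS in the labels). Bars are the values of the single libraries and lines are 95% exact Poisson intervals. Dzip3 is highest in all 3 peaks, which were taken from the Dzip3 list.

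No ubH2A peak was found within 100 kb of the 6 genes on chromosomes with a complete ubH2A list (*Neurog1*, *Neurog2*, *Neurod1*, *Neurod6*, *Atoh1* and *Olig2*), where 39.1% of protein-coding genes on such chromosomes had one. The nearest ubH2A peak was 162 kb away for *Neurod6* and 199 kb for *Atoh1*, and farther for the others, up to 486 kb for *Neurod1*. *Neurog3* and *Neurod4* on chromosome 10 and *Neurod2* on chromosome 11 were not assessed for ubH2A or input peaks, because the lists used here are incomplete there. An input peak was found for 2 of the 6 genes, against 21.0% of protein-coding genes on the chromosomes with a complete input list, 16.1 kb downstream of *Neurod1* with 52 input reads and 59.7 kb downstream of *Atoh1* with 45. Both input peaks consisted mainly of repeated sequence, with 100% and 89.1% of runs repeated. At the *Atoh1* input peak Dzip3 over input was 0.83 (0.53 to 1.29), and at the *Neurod1* one it was 0.03 (0.004 to 0.13), a ratio that rests on 2 Dzip3 reads.

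The base composition of the TSS was a property that the division by Ring1B peaks had not used. In the 300 bases centred on the TSS, the genes with a Ring1B peak had 28 CG in *Neurog1*, 22 in *Neurod2*, 21 in *Olig2*, 20 in *Atoh1* and 19 in *Neurog2*. The genes without had 26 in *Neurod1*, 17 in *Neurog3*, 7 in *Neurod4* and 4 in *Neurod6*. The groups overlapped through *Neurod1*, which was above all Ring1B genes but *Neurog1*. Over the genome the median was 23 (quartiles 12 to 32) in genes with a Ring1B peak at the TSS and 13 (4 to 27) in genes without. Of all genes with 26 CG or more, as in *Neurod1*, 10.9% had a Ring1B peak at the TSS. GC content gave another order. It was highest in *Neurog1* with 70.3%, followed by *Neurod1* with 66.7% and *Neurog3* with 64.0%, both without a Ring1B peak. The other 4 genes with a Ring1B peak lay below these and above *Neurod4* with 54.7% and *Neurod6* with 49.0%.

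**Figure D5:**
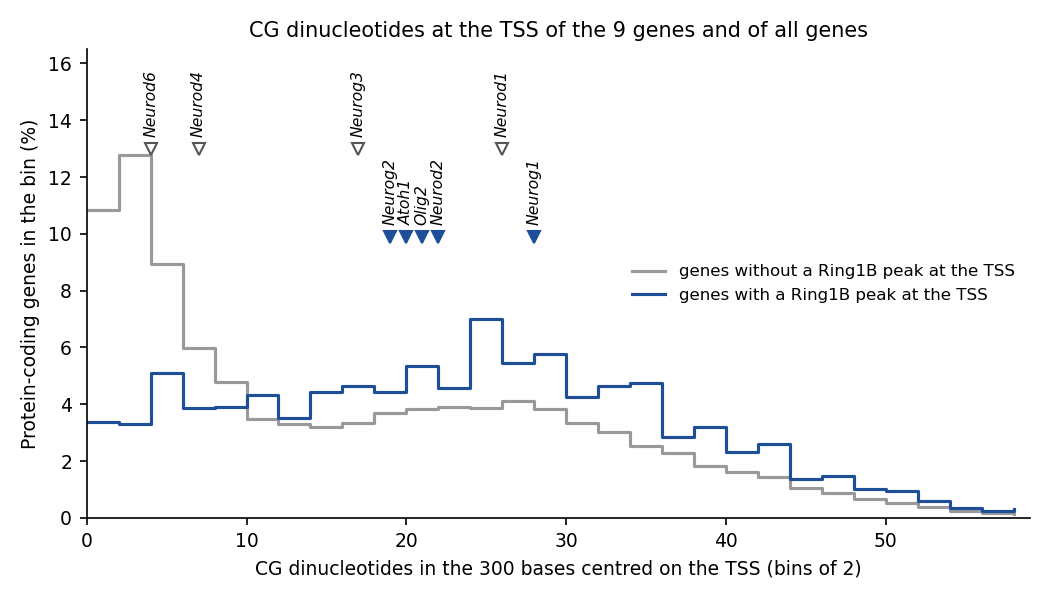
Number of CG dinucleotides in the 300 bases centred on the TSS (x axis) as the percentage of protein-coding genes in bins of 2 (y axis), for genes with and without a Ring1B peak at the TSS; windows beyond the right end of the axis are not drawn. Triangles mark the counts of the members, filled for those with a Ring1B peak and open for those without, and their height has no meaning. *Neurod4* and *Neurod6* lie to the left of the other members, and *Neurod1* lies among those with a Ring1B peak.

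Genes that work with the proneural factors were read the same way, from lists chosen by function, also with earlier results known. Of 11 other neural bHLH genes, 7 had a Ring1B peak at the TSS, among them *Ptf1a* with 824 Ring1B reads, *Bhlhe23* with 682 and *Atoh8* with 540. *Ptf1a* specifies inhibitory neurons and cells of the pancreas. Among their E protein partners 1 of 3 had one (*Tcf3*, 60 reads). Among the listed Id, Hes and Hey genes it was 3 of 11, with 308 Ring1B reads in *Hes5*, 97 in *Hes6* and 64 in *Id1*. Of 8 Notch ligands and receptors, through which proneural cells inhibit their neighbours, 3 had one, all of them ligands (*Dll4* with 704 reads, *Dll1* with 452 and *Jag2* with 57). Of 11 neuronal genes that act downstream, 4 had one, *Ebf3* with 1037 reads, *Insm1* with 675, *Rbfox3* with 382 and *Ebf2* with 106. These shares of 63.6%, 33.3%, 27.3%, 37.5% and 36.4% are to be read beside the 7.54% of all genes, and the lists were not tested against chance. The peaks of *Tcf3*, *Id1* and *Jag2* were 200 bp long, the shortest length among Ring1B peaks without an input peak. The share of the E proteins rests on the *Tcf3* peak alone. No gene of any of these lists had a Dzip3 peak at the TSS, where 1.30% of all genes had one. Within 100 kb a Dzip3 peak was found for 3 of 11 other neural bHLH genes, 2 of 3 E proteins and 5 of 11 Id, Hes and Hey genes. It was found for 5 of 8 Notch genes and 7 of 11 downstream genes, against 36.3% of all genes. *Olig1* is in the first list and its TSS peak is also the 44.3 kb peak counted for *Olig2*.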

How the data were processed

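ChIP-seq libraries of mES cells for Ring1B, Dzip3, ubH2A and input DNA, 1 of each, were aligned by the authors to mm9 with the Illumina Analysis Pipeline allowing 1 mismatch, and peaks of each library were found in Partek Genomics Suite (FDR 0.1). The authors deposited read counts of all 4 libraries in each peak, the height as RPM, a p-value, the ratio (fold) to input DNA and the percent of the peak covered by peaks of the other lists. The p-values and the deposited ratios were used in no result except a fold filter among the alternatives. Library sizes, taken as the median of maximum extended reads over RPM, were 51.8, 53.3, 67.0 and 48.3 M in the order above, and the lists hold 10119, 6482, 6642 and 6804 peaks. The paper gives a smaller approximate number of uniquely mapped reads per ChIP-seq sample than any of these sizes. Which reads the deposited RPM was scaled to was not examined. A row of the ubH2A list and a row of the input list run into another and were left out, so that these lists are incomplete on chromosomes 1, 10 and 11, and the input list also on 12.

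Distances run from the nearest peak edge to every annotated TSS. Counts were divided by library size and given with exact Poisson intervals, and ratios with exact conditional (Clopper-Pearson) intervals at 95%. Ratios between peaks assume that reads are independent. Sequences were read from the mm9 genome (NCBIM37), and repeated 32-base runs were counted on chromosomes 1 to 19, X and Y. The members and lists were chosen with earlier results of these data known. All 9 members are described, with up to 4 genes of each list that have a Ring1B peak at the TSS, by Ring1B reads, and the 5 genes most like the members. An item that this rule names is not reported here by itself. The distance function was tested on simulated data, where 174 of 174 peaks placed within 100 kb of a TSS were recovered over 22367 genes. Calculations used Python 3.11.15, numpy 2.4.6, pandas 2.3.3, scipy 1.17.1, pysam 0.24.0 and matplotlib 3.10.9. Alternatives were other TSS limits and windows, stronger peaks only, merged peaks, the nearest gene only, peaks without input overlap and other scalings.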

Additional observations from a re-analysis of the deposited data

How the results depend on the processing

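No paired analysis was possible because every target was sequenced as a single library and no result comes from a test. Of the recomputed summary values, 46 stayed near the values given and 15 moved. Some of the 46 could not move. The ubH2A count of 0 stays 0 under any narrower rule, and no Ring1B or Dzip3 peak of the members overlapped an input peak. Near was also a wide label, which held for 27 Ring1B peaks against 20 within 10 kb and for 3 Dzip3 peaks against 2 within 50 kb. The 27 Ring1B peaks within 100 kb became 15 within 4 kb, 14 in the stronger 50% of the list and 16 when peaks less than 1000 bp apart were merged. The 3 Dzip3 peaks became 0 within 10 kb and 0 within 4 kb, and 1 when a peak was given only to the gene with the nearest TSS. The count was also 1 when peaks with mostly repeated sequence were left out, an alternative chosen after seeing the data. The 2 input peaks became 1 within 50 kb, 0 within 10 kb, 0 within 4 kb and 1 for the nearest gene only. Scaled to the reads in all Ring1B peaks instead of library size, the ratios to input over the 5 TSS peaks rose to 199.8 for Ring1B, 17.0 for Dzip3 and 13.8 for ubH2A. On that scale input has the larger share of its reads, so the rise is not a measure of stronger Ring1B. The median number of Ring1B peaks beyond 1000 bp in genes without a TSS peak was 0 when the genes were split at 4000 bp. Small counts limit these values, since input had 6 to 20 reads in the TSS peaks of the 5 genes and 2 in 2 of the 3 Dzip3 peaks.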
